A study of Mus musculus with 40 samples.

Results

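Egr1, Junb, Nr4a1 and Nr4a3 are transcription factor genes that neurons switch on within minutes of strong synaptic input. In the cortex RNA-seq table each had 1 transcript, so 4 of 6831 transcripts are described here. They were chosen by gene name with earlier results of these data known, among them the difference between the saline groups and that between the HF-HI groups. Those values are therefore given as a description without a test. The measures that did not enter the choice, the effect of impact under memantine, the effect of memantine in sham mice and the co-variation of the genes inside each group, were tested. The tested comparisons share the memantine HF-HI and saline sham libraries with the untested ones. The related gene Nr4a2 was not in the table.

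The libraries came from the cortex of male C57BL/6 mice that were 12 weeks old. High-frequency head impact (HF-HI) was given in daily sessions under isoflurane, sham mice were handled and anaesthetised in the same way without impact, and either memantine, which blocks the open channel of NMDA-type glutamate receptors, or saline alone was injected intraperitoneally 1 h before each session. Cortex was taken 24 h after the last session. There were 10 libraries in each of 4 groups (sham or HF-HI, each with saline or with memantine), although the series description speaks of 4 samples per group, and no label ties libraries to separate mice beyond a number from 1 to 10. The library numbered 1 stood low for the 4 transcripts in most groups, so the differences are given with and without it. If any libraries are technical repeats, the p-values below measure only the spread between libraries. Transcripts of the table held 13322335 to 17529586 reads per library. Of 9 markers of cortical excitatory neurons, 8 were in the table, at summed normalised counts of 38005 to 60285 per library, none of 6 blood markers was there, and 14 of 19 striatal markers were there, at 50063 to 79762.

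These genes are immediate early genes. Calcium entry through NMDA receptors and voltage-gated channels activates MAP kinase and calcium-calmodulin kinase signalling, which acts on the transcription factors CREB and SRF already bound at their promoters, so that transcription starts without new protein synthesis. The RNAs are short-lived, which makes their level a readout of recent activity. Egr1 (Zif268) is a zinc finger activator linked to synaptic plasticity and memory, Junb is a bZIP subunit of the AP-1 dimer, and Nr4a1 (Nur77) and Nr4a3 (Nor1) are orphan nuclear receptors.

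The stretch just upstream of the start is where CREB and SRF act, so it is shown for the 3 genes that matched the RefSeq promoter table of mouse build GRCm38.p6, Junb, Nr4a1 and Nr4a3. Each line is 5′ to 3′ on the strand of the gene, and capitals mark every CGTCA or its reverse complement TGACG, the core of the cAMP response element (CRE) that CREB binds. Junb is chr8:84978749-84978998 on the minus strand and Nr4a1 is chr15:101266596-101266845 on the plus strand, each the 250 bases before the start that the promoter table uses. For Nr4a1 that is the start of the matching GENCODE transcript, and the stretch lies inside the wider RefSeq gene span but in no exon of GENCODE. For Nr4a3, on the plus strand, only chr4:48045055-48045107 is shown, which ends 30 bases inside the annotated gene.
Junb: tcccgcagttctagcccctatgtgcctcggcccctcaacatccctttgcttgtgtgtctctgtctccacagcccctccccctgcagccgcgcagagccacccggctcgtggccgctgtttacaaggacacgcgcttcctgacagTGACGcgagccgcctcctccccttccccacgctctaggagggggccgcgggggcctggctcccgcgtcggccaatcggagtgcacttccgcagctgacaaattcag
Nr4a1: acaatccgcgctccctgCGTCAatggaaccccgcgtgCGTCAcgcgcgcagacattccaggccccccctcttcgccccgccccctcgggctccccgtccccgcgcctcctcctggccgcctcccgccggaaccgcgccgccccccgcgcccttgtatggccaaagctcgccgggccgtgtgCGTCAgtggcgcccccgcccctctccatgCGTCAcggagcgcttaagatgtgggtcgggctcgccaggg
Nr4a3: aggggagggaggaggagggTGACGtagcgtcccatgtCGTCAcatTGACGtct

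The Nr4a1 stretch held 4 CRE cores and the 250-base Nr4a3 window also held 4, of which 3 lie in the 53 bases shown. That Nr4a3 window runs past the start of the matching GENCODE transcript at 48045153, and its remaining core lies beyond this start. Of the 32851 windows of 250 bases before the starts that the promoter table uses, 0.137% held 4 or more. For Nr4a3 this share stands beside a window that is not all upstream of the GENCODE start. The Junb stretch held 1, and 17.8% of all windows held at least 1. On both strands, the full CRE TGACGTCA (which contains the core on each strand), the AP-1 site TGANTCA, the NR4A site AAAGGTCA and the SRF-binding CArG box had no match in these windows, against 1.55%, 6.75%, 1.34% and 1.47% of all windows. The EGR site GCGNGGGCG had 1 match, in Nr4a1, and was in 4.7% of all windows. A match is a description of letters and not of binding, and the absence of a match says only that these letters are not in this window.

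Per unit of transcript length, Egr1 was the most abundant of the 4 in saline sham cortex. Egr1 (NM_007913, chromosome 18, 34861207 to 34864956) had 705 ± 178 normalised counts per kb (mean ± SD, n = 10), Junb (NM_008416, chromosome 8, 84976909 to 84978748) 292 ± 98.1, Nr4a1 (NM_010444, chromosome 15, 101253902 to 101274795) 291 ± 96.2 and Nr4a3 (NM_015743, chromosome 4, 48045078 to 48086447) 104 ± 24.4. Positions are the gene spans of build GRCm38, lengths are those of the matching GENCODE transcripts, and the normalised count is the read count of a transcript after scaling for library depth. Junb and Nr4a1 stood at about the same level, and Nr4a3 was the lowest. By mean count the 4 transcripts lay at the 77.6th, 14.0th, 32.9th and 9.6th percentile of the table.

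All 4 transcripts had the same order of group means, highest in saline HF-HI, then memantine HF-HI, memantine sham and saline sham. Between neighbours in this order the means differed by less than the larger of both SDs, except for Nr4a1 between the HF-HI groups. For Nr4a3 the sham groups were equal to within 1 count, at 594 ± 229 with memantine and 594 ± 140 with saline. In bulk tissue, fewer expressing cells and less RNA per cell cannot be told apart.

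Egr1 ranged from 1521 to 2934 normalised counts in saline sham (median 1863), from 1385 to 3391 in saline HF-HI (median 2806), from 1112 to 3337 in memantine sham (median 2256) and from 1167 to 3204 in memantine HF-HI (median 2388). Every pair of groups overlapped. The means were 2141 ± 539, 2749 ± 577, 2277 ± 805 and 2485 ± 625 (SD, n = 10 each). In saline HF-HI the mean was 1.28 times that of saline sham, a difference of 0.36 in log2 counts (SE 0.19), and 4 of 10 saline HF-HI libraries lay above the highest saline sham library. The lowest saline HF-HI library lay below all saline sham libraries.

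Junb, the AP-1 subunit, ranged from 267 to 828 normalised counts in saline sham (median 486), from 345 to 1259 in saline HF-HI (median 857), from 346 to 909 in memantine sham (median 566) and from 397 to 890 in memantine HF-HI (median 732). The saline groups overlapped, but 7 of 10 saline HF-HI libraries were above the highest saline sham library. The means were 528 ± 177, 866 ± 245, 626 ± 195 and 705 ± 146 (SD, n = 10 each). The saline HF-HI mean was 1.64 times the saline sham mean, a log2 count difference of 0.72 (SE 0.20).

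Nr4a1, the nuclear receptor Nur77, showed the least overlap between the saline groups. It ranged from 439 to 1054 normalised counts in saline sham (median 655), from 370 to 1437 in saline HF-HI (median 1232), from 360 to 1331 in memantine sham (median 911) and from 322 to 1165 in memantine HF-HI (median 890). In saline HF-HI, 9 of 10 libraries were at 1151 or more, above every saline sham library, and the tenth, at 370, was below all of them. The means were 720 ± 238, 1187 ± 302, 863 ± 338 and 873 ± 243 (SD, n = 10 each). The saline HF-HI mean was 1.65 times that of saline sham, a log2 count difference of 0.72 (SE 0.24).

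Nr4a3, the nuclear receptor Nor1, had the smallest difference. It ranged from 393 to 834 normalised counts in saline sham (median 553), from 428 to 873 in saline HF-HI (median 712), from 328 to 940 in memantine sham (median 553) and from 341 to 859 in memantine HF-HI (median 635). The groups overlapped over most of their range, and 1 of 10 saline HF-HI libraries exceeded the highest saline sham library. The means were 594 ± 140, 708 ± 118, 594 ± 229 and 643 ± 143 (SD, n = 10 each). The saline HF-HI mean was 1.19 times that of saline sham, a log2 count difference of 0.27 (SE 0.18).

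**Figure D1:**
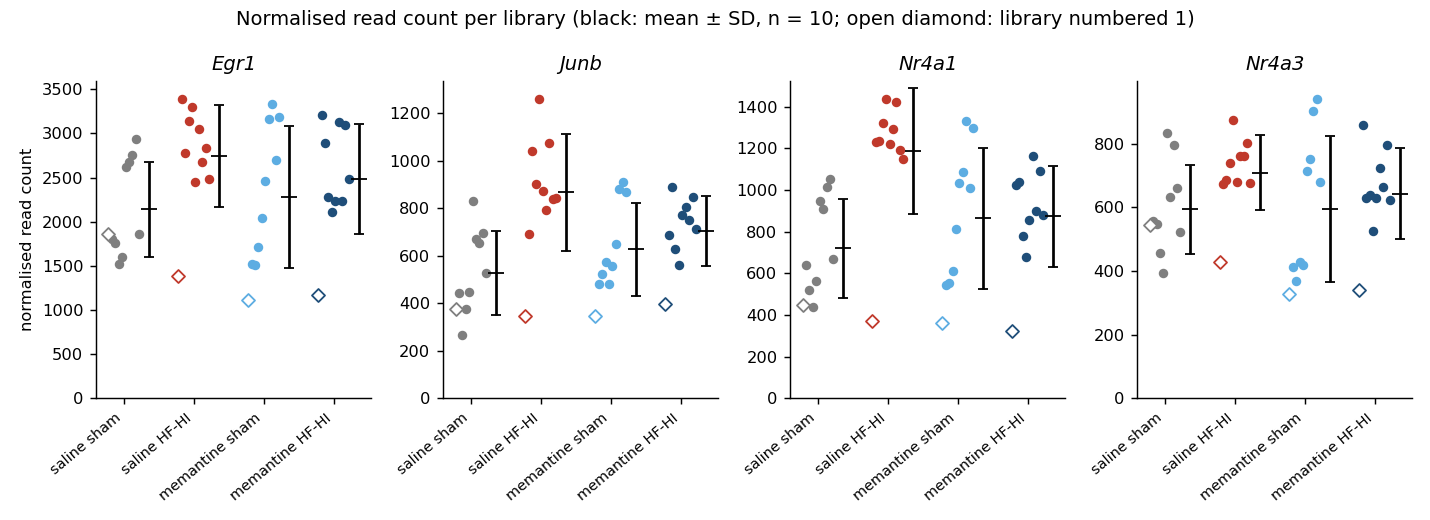
Normalised read count (vertical axis) of Egr1, Junb, Nr4a1 and Nr4a3 in each of the 4 groups, with 1 point per library, the mean ± SD in black and the library numbered 1 as an open diamond. The open diamonds lie at or near the bottom of their group in most panels, and 9 of 10 saline HF-HI libraries of Nr4a1 lie above all saline sham libraries.

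In saline HF-HI, 9 of 10 libraries were above the saline sham mean for each of the 4 transcripts, and the exception was the library numbered 1 each time. Over the table, 11.7% of the transcripts had at least 9 of 10 saline HF-HI libraries on one side of that mean. In the same contrast 9.53% of all transcripts had an unadjusted limma p under 0.05. The members were chosen with this contrast known, so nothing is read from that share. Without the 4 libraries numbered 1, a choice made after seeing the values, the log2 ratio of the saline means was 0.42 for Egr1, 0.76 for Junb, 0.77 for Nr4a1 and 0.30 for Nr4a3, each larger than with them.

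Memantine HF-HI had lower means than saline HF-HI for all 4 transcripts, with Nr4a1 furthest apart. The log2 count difference was -0.44 (SE 0.24) for Nr4a1, -0.26 (SE 0.20) for Junb, -0.16 (SE 0.19) for Egr1 and -0.16 (SE 0.18) for Nr4a3. All 10 memantine HF-HI libraries of Nr4a1 were below the saline HF-HI mean of 1187, and each was below the saline HF-HI library of the same number. Without the libraries numbered 1 the log2 ratio of the means was -0.45 for Nr4a1, -0.32 for Junb, -0.14 for Egr1 and -0.13 for Nr4a3. On the deposited scale the difference was sensitive to either library numbered 1, and leaving out 1 of them moved Egr1 from -0.09 to -0.14 (without that of saline HF-HI) or -0.03 (without that of memantine HF-HI) and Nr4a3 from -0.05 to -0.07 or -0.02. For Junb, Egr1 and Nr4a3 the memantine library was the lower in 7, 6 and 9 of 10 pairs of the same number. Over the table, 0.264% of the transcripts had all 10 such pairs in one direction, and 3.91% had an unadjusted p under 0.05 in this contrast. The interaction of impact and drug, also a description, was -0.66 (SE 0.35) in log2 counts for Nr4a1, -0.52 (SE 0.28) for Junb, -0.20 (SE 0.27) for Egr1 and -0.09 (SE 0.25) for Nr4a3.

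Whether impact changed these genes in memantine-treated mice was tested with limma across all 6831 transcripts on the deposited values. None of the 4 passed an unadjusted p of 0.05, which 4.61% of all transcripts did. Junb was 0.20 higher in log2 counts in memantine HF-HI than in memantine sham (95% interval -0.21 to 0.60, limma p = 0.334), with 8 of 10 libraries above the memantine sham mean. Egr1 was 0.16 higher (-0.22 to 0.55, p = 0.413), Nr4a3 0.17 higher (-0.18 to 0.53, p = 0.397) and Nr4a1 0.06 higher (-0.44 to 0.55, p = 0.856). The adjusted p-values were 0.967 to 0.994, and a two-sided permutation test of each mean difference gave p-values of 0.292 to 0.863. Without the libraries numbered 1 the limma p-values were 0.297 for Egr1, 0.248 for Junb, 0.733 for Nr4a1 and 0.322 for Nr4a3. The sign of the Nr4a1 change turned when single libraries were left out.

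Whether memantine changed the genes without impact was tested in the sham groups, again with differences in log2 counts and p-values from the deposited values. A limma fit of log2 counts gave p-values of 0.203 to 0.833 for the 4 transcripts. None of the 4 passed, against 7.51% of all transcripts. Junb was 0.26 higher in log2 counts with memantine than with saline (95% interval -0.15 to 0.66, limma p = 0.225, adjusted p = 0.8), and Nr4a1 was 0.22 higher (-0.27 to 0.71, p = 0.315, adjusted p = 0.856). Egr1 differed by 0.04 (-0.34 to 0.42, p = 0.755) and Nr4a3 by -0.06 (-0.42 to 0.29, p = 0.846). Permutation p-values ran from 0.246 to 0.867, and without the libraries numbered 1 the limma p-values were 0.389 for Egr1, 0.103 for Junb, 0.104 for Nr4a1 and 0.844 for Nr4a3. The sign of the Egr1 and Nr4a3 changes turned when single libraries were left out.

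**Figure D2:**
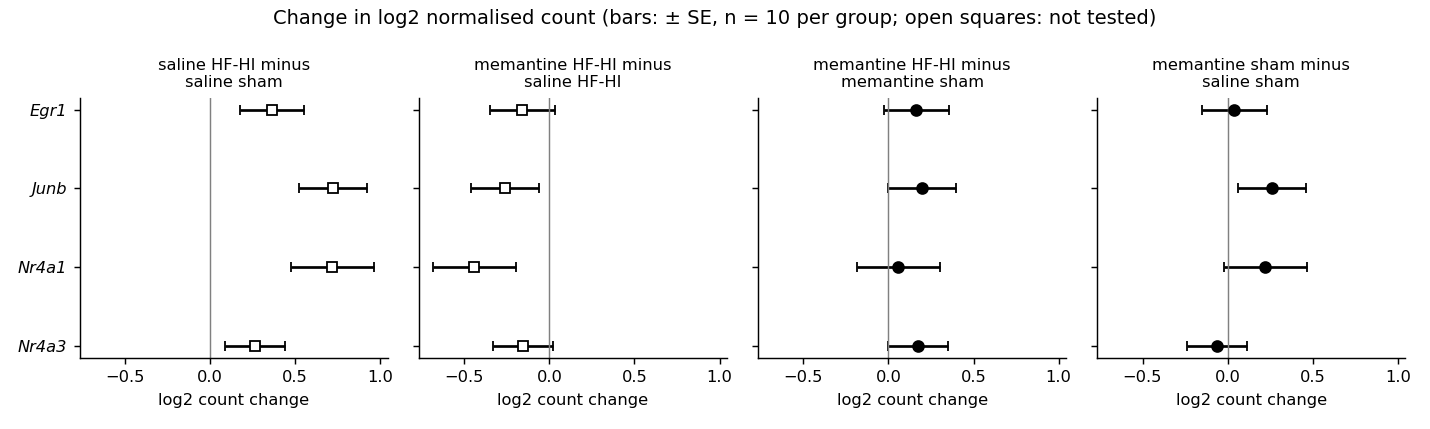
Difference between group means in log2 normalised count (horizontal axis) for the 4 transcripts in the 4 comparisons, with bars of ± SE and 10 libraries per group, where open squares mark untested differences and filled circles tested ones. The saline HF-HI minus saline sham differences run from 0.27 for Nr4a3 to 0.72 for Junb and Nr4a1, and the filled circles run from -0.06 to 0.26.

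The spread inside the groups was wide for these transcripts. Their SD of log2 counts within groups was 0.43 for Egr1, 0.46 for Junb, 0.56 for Nr4a1 and 0.40 for Nr4a3, at the 86.0th to 91.9th percentile of the table, whose median was 0.115. Counting error accounts for a coefficient of variation of at most 3.0% to 6.1% at the lowest library of each transcript, while the coefficients of variation in the groups ran from 16.6% to 39.2%. The highest was that of Nr4a1 in memantine sham.

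The low and the high libraries went with the library number in part, a pattern noticed after the values were seen and therefore given without a test. The library numbered 1 was the lowest of its group for all 4 transcripts in both memantine groups and in saline HF-HI. Its Nr4a1 count was 322 in memantine HF-HI, 360 in memantine sham and 370 in saline HF-HI. In saline sham it was 448, where the lowest library had 439. For Junb and Nr4a1, but not Egr1 and Nr4a3, it was among the lowest 2 libraries in all 4 groups, as it was for 1.2% of all transcripts.

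In the sham groups the libraries numbered 1 to 5 stood below those numbered 6 to 10. In saline sham, Junb was at 267 to 447 in numbers 1 to 5 and at 525 to 828 in numbers 6 to 10, and Nr4a1 at 439 to 641 against 668 to 1054. These 2 of 4 transcripts did not overlap, against 2.27% of all transcripts in either direction. Egr1 (1521 to 1865 against 1862 to 2934) and Nr4a3 (393 to 558 against 522 to 834) overlapped slightly. In memantine sham, Egr1 was at 1112 to 2046 against 2465 to 3337, Nr4a1 at 360 to 813 against 1008 to 1331 and Nr4a3 at 328 to 428 against 678 to 940, so 3 of 4 did not overlap, against 0.995% of all transcripts. Junb (346 to 575 against 558 to 909) overlapped there.

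In the HF-HI groups all 4 transcripts overlapped between the same sets of numbers. In saline HF-HI, Egr1 was at 1385 to 3391 counts in numbers 1 to 5 and at 2456 to 3046 in numbers 6 to 10, and Nr4a1 at 370 to 1437 against 1151 to 1422. In memantine HF-HI, Egr1 was at 1167 to 3204 against 2237 to 3135 and Nr4a1 at 322 to 1037 against 858 to 1165. The HF-HI minus sham difference varied with the numbers, again without a test. For Egr1 the saline HF-HI and sham means were 2799 and 1711 in numbers 1 to 5 and 2699 and 2571 in numbers 6 to 10. In numbers 1 to 5 they were 848 and 382 for Junb, 1119 and 522 for Nr4a1, and 680 and 499 for Nr4a3. In numbers 6 to 10 they were 884 and 675 for Junb, 1256 and 918 for Nr4a1, and 736 and 689 for Nr4a3. With memantine the HF-HI mean was above the sham mean in numbers 1 to 5 for all 4 transcripts, and in numbers 6 to 10 it was below it for Egr1 (2638 and 2971), Nr4a1 (979 and 1151) and Nr4a3 (687 and 797). The labels do not say what the numbers mean. Over all transcripts the same-numbered libraries of 2 groups did not deviate together.

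**Figure D3:**
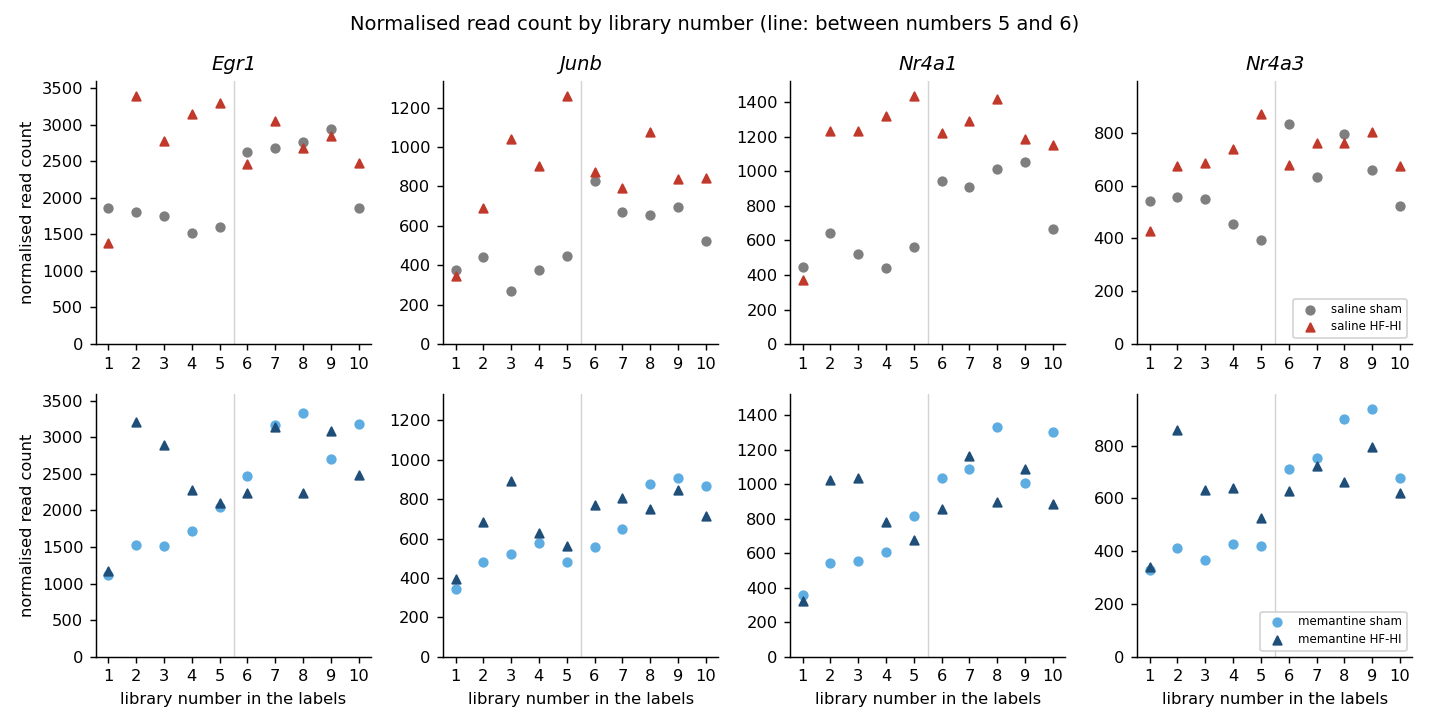
Normalised read count (vertical axis) against the number of the library in the labels (horizontal axis), with saline groups in the upper panels, memantine groups in the lower panels, sham as circles and HF-HI as triangles. Most sham circles numbered 6 to 10 lie above those numbered 1 to 5. The exceptions are number 10 of saline sham for Egr1 (1862) and Nr4a3 (522) and number 6 of memantine sham for Junb (558). Among the HF-HI triangles number 1 stands low, as at 370 and 322 counts for Nr4a1.

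Inside the groups the 4 transcripts rose and fell together. After the group mean was removed, Pearson's r over the 40 libraries was 0.95 for Egr1 and Nr4a1, 0.891 for Egr1 and Nr4a3, 0.88 for Junb and Nr4a1, 0.864 for Nr4a1 and Nr4a3, 0.795 for Egr1 and Junb, and 0.781 for Junb and Nr4a3. Spearman's rho ran from 0.741 to 0.941. All 6 pairs had a permutation p of 1e-05 for r and for rho, the smallest that 100000 resamples within groups can give, also after Benjamini-Hochberg adjustment over the 6 pairs. Without the 2 libraries farthest from the median of the first gene, r was 0.721 to 0.938.

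The co-variation did not rest on the libraries numbered 1. Without them r was 0.936 for Egr1 and Nr4a1, 0.835 for Egr1 and Nr4a3, 0.829 for Nr4a1 and Nr4a3, 0.784 for Junb and Nr4a1, 0.69 for Junb and Nr4a3, and 0.668 for Egr1 and Junb. Within single groups of 10 libraries r ran from 0.722 to 0.987, the highest for Egr1 and Nr4a1 in memantine sham. The lowest was for Egr1 and Junb in saline HF-HI (permutation test, p = 0.0503), the one pair in one group that missed 0.05.

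**Figure D4:**
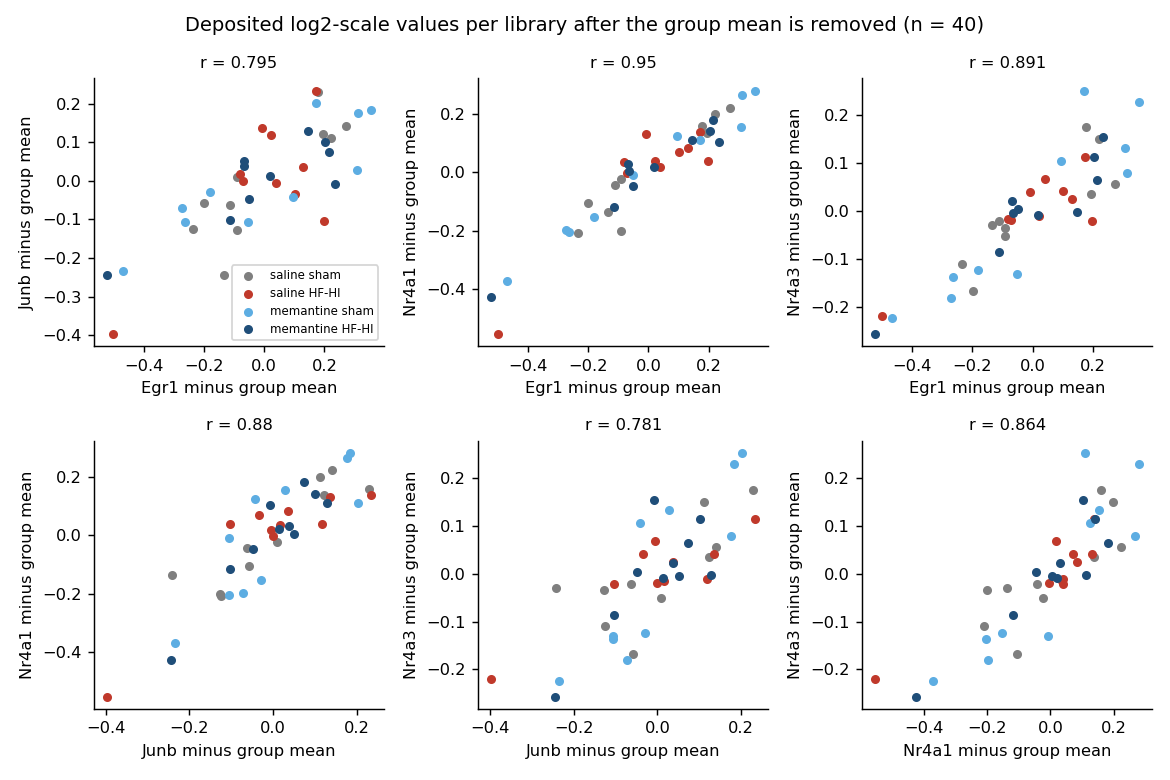
Deposited log2-scale value of each library minus its group mean, for the 6 pairs of transcripts, with 1 point per library (n = 40) and colours for the groups. The points rise together in each panel, most tightly for Egr1 and Nr4a1 (r = 0.95). The lowest points of saline HF-HI and of both memantine groups are the libraries numbered 1, which are not marked here.

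The transcripts whose within-group pattern was most like the mean of the 4 were Arc (NM_018790, r = 0.956), which encodes a cytoskeletal regulator of AMPA receptor endocytosis, Dusp6 (0.938), an ERK phosphatase, Frmd6 (0.936), a FERM domain protein, Per2 (0.876), a clock repressor, and Fosl2 (0.853), an AP-1 partner of Junb. Over the 6827 other transcripts, 16 had an r above 0.7, 125 an r above 0.5, and the 95th percentile was 0.385. The most negative were Chst11 (-0.665), Bsg (-0.611) and Spon1 (-0.61). These correlations share libraries and depth scaling and are a description. Arc, the nearest, correlated at 0.936 with Egr1, 0.935 with Nr4a1, 0.881 with Nr4a3 and 0.866 with Junb.

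**Figure D5:**
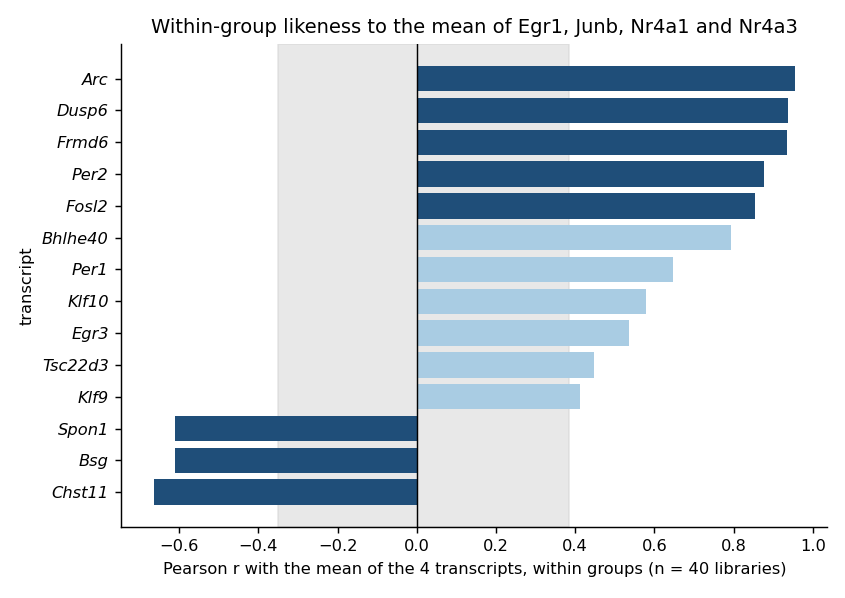
Pearson r over 40 libraries, after group means are removed, between each named transcript and the mean of Egr1, Junb, Nr4a1 and Nr4a3, with dark bars for the 5 most alike and 3 most unlike transcripts, pale bars for other listed transcription factors and a grey band from the 5th to the 95th percentile of all transcripts (-0.35 to 0.385). Arc, Dusp6 and Frmd6 lie above 0.93 and Egr3 lies at 0.536.

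Arc had the group pattern of the 4 transcription factors. Its normalised counts were 3227 ± 853 in saline HF-HI, 2455 ± 647 in memantine HF-HI, 2368 ± 1240 in memantine sham and 1978 ± 877 in saline sham (SD, n = 10 each). It was higher in saline HF-HI than in saline sham (limma p = 0.00723, adjusted p = 0.34). Of 10 saline HF-HI libraries, 9 lay above the saline sham mean. Over the table, 11.7% of the transcripts had at least 9 on one side of it. Dusp6 rose from 1107 ± 116 to 1415 ± 198 (p = 0.000696, adjusted p = 0.165) and was lower in memantine HF-HI (1206 ± 178) than in saline HF-HI (p = 0.0176, adjusted p = 1.0). Per2 differed from the members in its group pattern, with its highest means in both memantine groups and a difference between the sham groups (1537 ± 264 against 1206 ± 251, p = 0.00245, adjusted p = 0.462). Chst11 fell in saline HF-HI (p = 0.00118, adjusted p = 0.191) and Frmd6 rose (p = 0.00559, adjusted p = 0.308). Arc and Dusp6 are on a list chosen with earlier results of these data known. All of these transcripts were named for their likeness or unlikeness to the members, so nothing is read from their p-values.

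Of 24 other activity-induced transcription factors, 7 had a transcript in the table, and all 7 correlated positively with the mean of the members, from 0.411 for Klf9 to 0.853 for Fosl2. Fos, Fosb, Jun, Npas4 and Egr2 are among those without one, and they were not analysed here. Under saline, 3 of 7 rose in HF-HI, Klf10 (533 ± 33.2 to 647 ± 93.1, limma p = 0.00117, adjusted p = 0.191), Bhlhe40 (1795 ± 258 to 2142 ± 277, p = 0.00915, adjusted p = 0.367) and Per1 (1153 ± 292 to 1446 ± 306, p = 0.0336, adjusted p = 0.486), against 9.53% of all transcripts. The list was chosen with earlier results of these data known, so nothing is read from that share. Egr3, the relative of Egr1, was at 1313 ± 184 in saline sham and 1127 ± 218 in saline HF-HI (p = 0.172, adjusted p = 0.744). None of the 7 was called in memantine HF-HI against memantine sham (4.61% of all) or in the sham groups (7.51%), and Klf10 was lower in memantine HF-HI than in saline HF-HI (547 ± 64.0 against 647 ± 93.1, p = 0.00359, adjusted p = 1.0).

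Of the effector genes that such factors accompany, 11 of 22 transcripts were called under saline, 7 higher and 4 lower, against 9.53% of all transcripts. This list was chosen with earlier results of these data known, so nothing is read from that share. Those higher included both Arc transcripts, Dusp6, Ier5, Spry2, Plk2 and Dusp14, and those lower were 1 of 4 Homer1 transcripts (NM_001284189), Vgf and both Scg2 transcripts. In memantine HF-HI against memantine sham 2 of 22 were called (4.61% of all), both lower, Nptx2 (p = 0.00503, adjusted p = 0.896) and Spry2 (p = 0.0395, adjusted p = 0.967). Between the HF-HI groups 6 of 22 were called (3.91% of all), led by Spry2 (p = 0.00176) and Nrn1 (p = 0.00418), both lower with memantine with adjusted p = 1.0, and between the sham groups 3 of 22 (7.51% of all), led by Scg2 (p = 0.00543) and Homer1 (p = 0.00926), both lower with memantine with adjusted p of 0.511 and 0.554.

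In a list of transcription factors and coactivators, 2 of 21 transcripts were called under saline (9.53% of all), Tcf4 (NM_013685, p = 0.0178) and Atf4 (p = 0.045), both higher. Whether the listed factors act on the 4 genes was not tested, and this list was also chosen with earlier results known. Under memantine 1 was called (4.61% of all), Mef2a, lower (3452 ± 284 to 2220 ± 1441, p = 0.00186, adjusted p = 0.809). Mef2a (p = 0.00282) and Atf4 (p = 0.0157), both lower with memantine, led the 4 called between the HF-HI groups (3.91% of all). The others there were 2 Tcf4 transcripts in opposite directions, NM_013685 (lower, p = 0.0179) and NM_001083967 (higher, p = 0.0471). Between the sham groups 5 were called (7.51% of all), led by Atf2 NM_001025093 (lower, p = 0.00688) and Elk1 (higher, p = 0.017). A further Atf2 transcript, NM_001284373, was higher there (p = 0.0483). Of 46 transcripts of calcium and MAP kinase signalling, 6 were called under saline (9.53% of all). Among them were 2 of Rps6ka3 in opposite directions, NM_001346675 (higher, p = 0.026) and NM_148945 (lower, p = 0.0405). The other comparisons called 1 under memantine, Ppp3cb (lower, p = 0.0353), and 0 between the HF-HI groups by limma. Between the sham groups 3 were called. Rps6ka3 NM_001346675 (p = 0.0125) and Cabin1 (p = 0.031) were higher with memantine, and Rps6ka3 NM_148945 was lower (p = 0.0426). Of 14 transcripts of protein partners of the members, only Nab1, a corepressor of Egr1, was called, in the sham groups (higher with memantine, p = 0.0361, adjusted p = 0.636). None of 7 NMDA receptor subunit transcripts was called in any of the 4 comparisons, and no listed transcript had an adjusted p under 0.1.

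Some markers of other cells moved with the saline contrast, and their part in the members' values was not tested beyond the covariate given here. The striatal summed normalised count was 66230 ± 7356 in saline sham (52825 to 79537) and 58136 ± 4261 in saline HF-HI (52595 to 65989), and 9 of 28 striatal transcripts were called there, all lower, against 9.53% of all transcripts. Of 5 inhibitory neuron transcripts 4 were called, Sst (p = 0.00438), Slc32a1 and Gad2 lower and Pvalb higher, with summed counts of 14751 ± 1252 in saline sham and 13761 ± 933 in saline HF-HI. Gfap, the astrocyte filament gene, was higher in HF-HI under saline (p = 0.0111, adjusted p = 0.374) and under memantine (p = 0.000257, adjusted p = 0.351). Of 12 astrocyte transcripts, 1 was called under saline and 2 under memantine (4.61% of all). Their summed counts were 117801 ± 4891 in saline sham and 118938 ± 2644 in saline HF-HI. With memantine they were 119645 ± 1569 in sham and 118482 ± 3169 in HF-HI. Under saline 1 of 16 oligodendrocyte, 1 of 5 microglial, 2 of 4 endothelial and 0 of 4 thalamic transcripts were called. So were 2 of 9 excitatory neuron transcripts, both higher. Over the 40 libraries within groups, the mean of the 4 members had an r of -0.372 with the striatal markers (rho -0.381, permutation p = 0.0258, adjusted p = 0.115) and -0.391 with 5 microglial ones (rho -0.444, p = 0.0157, adjusted p = 0.115 for r and 0.071 for rho), among 9 measures of which none had an adjusted p under 0.1 for r. Without the 2 farthest libraries these r were -0.329 and -0.563. With the excitatory neuron markers r was 0.336 (rho 0.252, permutation p = 0.0407). With the inhibitory neuron markers it was -0.315 (rho -0.238, p = 0.051). Both had an adjusted p of 0.115 for r, and without the 2 farthest libraries they were 0.296 and -0.244. With the striatal mean as a covariate, the saline HF-HI minus saline sham difference on the deposited scale went from 0.20 to 0.09 for Egr1, from 0.09 to 0.02 for Nr4a3, from 0.24 to 0.20 for Junb and from 0.28 to 0.20 for Nr4a1. The memantine HF-HI minus saline HF-HI difference went from -0.18 to -0.13 for Nr4a1, from -0.10 to -0.07 for Junb, from -0.09 to -0.01 for Egr1 and from -0.050 to -0.0076 for Nr4a3. Library total had an r of -0.044 with the members (p = 0.795).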

How the data were processed

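The authors sequenced ribosome-depleted stranded libraries of mouse cortex RNA. The sources disagree on the tools: the methods name STAR for alignment to mm10 and eXpress for counts per RefSeq transcript, while the submitters' processing notes name HISAT2 and StringTie. The values deposited by the authors are size-factor scaled counts after the variance-stabilising transformation of DESeq2, a log2 scale at high counts that is compressed at low counts, and 0 columns lacked a sample. They were inverted with their floor of 10.36 to normalised counts, which were whole multiples of a step in 100% of the values under 5000 (tolerance 0.05 reads). The lowest mean count was 549.2, and the threshold of the authors' filter on low means was not given in the sources used here. Size factors ran from 0.859 to 1.14. Near a count of 500, 1000 or 2000, a change of 1 log2 unit in counts is compressed to 0.295, 0.4 or 0.525 deposited units.

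Symbols, positions, lengths and promoter sequences came from RefSeq and GENCODE tables of GRCm38, which matched 6801 of 6831 transcripts. Groups and replicate numbers came from the labels. limma 3.58.1 in R 4.3.3 (lmFit, eBayes with a trend) was fitted on all 40 libraries with 1 mean per group, two-sided, and a transcript was called at an unadjusted p under 0.05. log2 counts are log2(count + 1). Permutation tests used 100000 resamples in Python 3.11.15. The members and lists were chosen with earlier results of these data known. Named were the 4 transcripts, the 2 called transcripts with the smallest p of each list in each contrast, the 5 transcripts most like the members and the 3 most unlike them. A transcript that this rule named is not reported here. Per1, the further effector genes, Egr3, Klf9 and the further transcripts of Rps6ka3, Atf2 and Tcf4 were added after their values were seen. Same-numbered libraries of 2 groups correlated at -0.13 to 0.16 over all transcripts, so the main tests did not use the numbers as pairs. That range is over all transcripts, and the 4 members did go with the number in part. The replicate block is the alternative that takes the number into account. Pairs of the same number are counted only as a description. Alternatives were other scales, normalisations, weights and filters, counts summed by gene, the compared groups alone, a striatal covariate, a replicate block and leaving out single libraries.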

Additional observations from a re-analysis of the deposited data

Results flagged for a closer look

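On the deposited scale, the library numbered 1 lay far below the nearest library in 6 of the 16 member and group combinations. The gap there passed Dixon's 95% limit of 0.466 of the group range, and chance alone would give this in about 1 in 20 groups. The gaps are fractions of the range of deposited values, and the normalised counts in brackets only show where the library lay. On normalised counts the fractions would differ, so the number of gaps past the limit depends on the scale. The gap was 0.795 of the range for Nr4a1 in saline HF-HI (370 normalised counts), 0.603 for Egr1 (1385), 0.598 for Nr4a3 (428) and 0.466, just past the limit, for Junb (345) in the same group. In memantine HF-HI it was 0.541 for Egr1 (1167) and 0.507 for Nr4a1 (322). The 4 transcripts vary together, so these 6 gaps come from 2 libraries and are not separate events.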

How the results depend on the processing

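Under the alternatives tried, none of the 4 members was called in memantine HF-HI against memantine sham or between the sham groups. The sign of their changes and of the co-variation held except as given here, while the counts of called transcripts varied. The other contrasts of the members were not tested, so they have no side of a threshold. The number of transcripts called for impact under memantine (315) was 513 with library weights and 253 to 525 with single libraries left out (525 without memantine sham number 9), and that for impact under saline (651) was 355 with the striatal covariate. Near-zero changes on the deposited scale turned sign. With the striatal covariate these were Nr4a1 under memantine (-0.0096) and the interaction for Nr4a3 (0.0054). Without the libraries numbered 1, an alternative added after the data were seen, Nr4a3 between the sham groups was 0.010. With single libraries left out, Nr4a1 under memantine ran from -0.026 to 0.063, and between the sham groups Egr1 ran from -0.0076 to 0.084 and Nr4a3 from -0.039 to 0.014. Egr1 and Junb in saline HF-HI alone gave r = 0.722 (permutation p = 0.0503). With the means of the replicate numbers also removed, r ran from 0.611 for Junb and Nr4a3 to 0.943 for Egr1 and Nr4a1. With the replicate block, the impact contrasts called 656 and 314 transcripts, the drug contrasts 278 and 507, and no member was called in the tested contrasts. Between the sham groups its limma p-values were 0.120 for Junb, 0.120 for Nr4a1, 0.688 for Egr1 and 0.800 for Nr4a3. In memantine HF-HI against memantine sham they ran from 0.214 for Junb to 0.776 for Nr4a1. The block narrowed the SE of Nr4a1 from 0.084 to 0.053, that of Egr1 from 0.101 to 0.078 and that of Junb from 0.063 to 0.049. The causes were not tested. The lowest member value was 267 normalised counts.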
